A study of Homo sapiens with 8 samples.

Results

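The regions described here are the γH2AX regions of the first 14 Mb of assembled sequence on the long arm of human chromosome 15, the stretch that holds bands 15q11 to 15q13. They were chosen by their positions in 3 deposited peak lists: a region is a member where its midpoint lies from 20 Mb to below 34 Mb on chromosome 15 (build hg19). By that rule 2701 of 53169 regions on chromosomes 1 to 22 and X are members: 680 of 9709 in the untreated list, 1093 of 25671 in the cisplatin list and 928 of 17789 in the Pt-ttpy list. The stretch itself was chosen by its measured number of regions, so its high density is a description and not a finding.

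The study profiled A2780, an established human ovarian carcinoma cell line, by chromatin immunoprecipitation and sequencing of γH2AX, the phosphorylated form of histone H2AX that forms around DNA breaks. The groups, of 2 samples each, were untreated cells, cells given cisplatin (a platinum drug that crosslinks DNA) at its IC80 for 96 hours, cells given Pt-ttpy (a platinum compound made to bind G-quadruplexes, folded guanine-rich DNA) at its IC80 for 96 hours, and input chromatin of untreated cells. An IC80 is the dose that inhibits by 80%. The labels tie both samples of an antibody group to 1 list, so each condition is 1 list without replicates, no p-value was computed, and a difference between lists compares those lists and has no replicate check. Each treated list's name also holds the tag of the untreated group. Its peaks may therefore have been called against untreated chromatin, which the sources do not state. The deposited folds and p-values of each list fit 1 constant background. A treated region's values are therefore not a local gain over untreated cells. The input was not analysed here. All groups are the same cell line, and the copy number of chromosome 15 in it was not measured here.

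Proximal 15q is built of blocks of duplicated sequence with ordinary, mostly unique sequence between them. The blocks, called BP1 to BP5 from the centromere outwards, are where recurrent deletions and duplications break by recombination between near-identical copies. The interval from BP2 to BP3 holds the imprinted genes of the Prader-Willi and Angelman syndromes (among them MAGEL2, NDN, SNRPN and UBE3A) and GABRG3, a receptor subunit for the transmitter GABA. The interval from BP4 to BP5 holds FAN1, a nuclease of crosslink repair, and TRPM1, an ion channel. On the centromere side of BP1 lie pericentromeric copies of genes such as POTEB and olfactory receptors, which have relatives next to the centromeres of other chromosomes. Segments were set in whole Mb from general knowledge: 20 to 22 Mb is the centromere side, 22 to 23 Mb holds BP1, 23 to 24 Mb BP2, 28 to 29 Mb BP3, 30 to 31 Mb BP4 and 32 to 33 Mb BP5, with the intervals between them. These limits are approximate, and no gene annotation of build hg19 was used, so no region is assigned to a gene, exon or intron.

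How alike the copies are can be seen in RefSeq sequence of build GRCh38.p14, matched by gene name. The sequence of the deposited regions themselves is not shown, since no genome of build hg19 was used here. The first sequences are microRNA hairpins, short enough to print whole, and are shown because each is encoded by several copies in these blocks. The 3 chromosome 15 copies of MIR3118, all on the centromere side of NIPA1 (the first unique gene after BP1 in that build), were identical over 75 bases. The copy on chromosome 21, MIR3118-1, differed from them at 4 alignment columns (94.7% identity), and its unmatched bases are in capitals.
MIR3118-2: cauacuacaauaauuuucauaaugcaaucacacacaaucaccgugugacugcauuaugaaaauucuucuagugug
MIR3118-1: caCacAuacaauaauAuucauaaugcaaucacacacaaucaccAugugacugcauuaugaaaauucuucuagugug
The 3 copies of MIR5701, on the same side of NIPA1, were identical over 82 bases.
MIR5701-1: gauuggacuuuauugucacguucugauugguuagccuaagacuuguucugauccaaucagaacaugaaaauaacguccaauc
The 3 copies of MIR4509 were identical over 94 bases, and lie in different blocks: MIR4509-1 between TUBGCP5 and MKRN3, where BP2 is, and MIR4509-2 and MIR4509-3 between HERC2 and APBA2, where BP3 is.
MIR4509-1: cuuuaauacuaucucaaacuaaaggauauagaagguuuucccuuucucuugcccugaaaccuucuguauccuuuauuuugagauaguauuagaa
The reads of this study were 50 bases long, so a read that falls whole inside one of these identical hairpins matches every copy equally.

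The duplicated blocks farther out hold near-identical copies too. GOLGA8 genes, members of a golgin family that spread with these blocks, are printed for BP4 and BP5 as the 300 bases from 250 before to 50 after the gene start. GOLGA8J lies in the BP4 block, between TJP1 and FAN1, and GOLGA8O in the BP5 block, between CHRNA7 and SCG5. Capitals in GOLGA8O mark the bases that do not match GOLGA8J, at 7 alignment columns (97.7% identity).
GOLGA8J: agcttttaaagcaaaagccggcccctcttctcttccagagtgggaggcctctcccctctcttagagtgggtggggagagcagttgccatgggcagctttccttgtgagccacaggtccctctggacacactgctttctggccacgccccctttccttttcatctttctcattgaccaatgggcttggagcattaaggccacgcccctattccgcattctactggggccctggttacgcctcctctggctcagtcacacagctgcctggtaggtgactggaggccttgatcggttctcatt
GOLGA8O: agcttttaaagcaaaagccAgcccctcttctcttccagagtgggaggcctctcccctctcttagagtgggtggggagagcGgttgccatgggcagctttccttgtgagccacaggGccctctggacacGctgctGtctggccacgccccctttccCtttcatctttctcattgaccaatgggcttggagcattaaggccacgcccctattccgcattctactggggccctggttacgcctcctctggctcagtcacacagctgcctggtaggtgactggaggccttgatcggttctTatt
Against GOLGA8J, the BP4 copies GOLGA8T, GOLGA8H and GOLGA8R had 100%, 98.7% and 97.3% identity and the BP5 copies GOLGA8K and GOLGA8N 99.7% and 96.4%. GOLGA8Q, also of BP4, had 60.3% over the aligned windows. Its window starts farther along the same sequence, and most of its 147 differing columns are ends of the windows without a counterpart.

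The same was measured over all promoters of the table, as the share of genes for which 50% or more of the 251 stretches of 50 bases in the promoter window also occur, on either strand, in the window of a gene of another name that does not overlap it. It was 2.12% of 27326 genes in all. Of the genes in the table it was 12 of 24 on the centromere side of NIPA1, 4 of 9 between TUBGCP5 and MKRN3, 5 of 8 between HERC2 and APBA2, 9 of 16 between TJP1 and FAN1, and 8 of 13 between CHRNA7 and SCG5. In the unique intervals it was 0 of 4 from NIPA1 to TUBGCP5, 3 of 36 from MKRN3 to HERC2, 0 of 6 from APBA2 to TJP1, 0 of 9 from FAN1 to CHRNA7 and 0 of 11 from SCG5 to RYR3. By this measure the stretches of BP2, BP3, BP4 and BP5 are each rich in repeated promoters. BP1 was not measured apart from the rest of the centromere side of NIPA1, which is also rich in them. The measure describes gene starts in another build and gives no level of mappability for the deposited regions. The order of the genes is also that of GRCh38.p14 and was not checked in build hg19.

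The γH2AX regions did not follow the 5 blocks evenly. They sat almost wholly in the first 3 Mb, on the centromere side and in the BP1 window, in all 3 conditions. From 20 to 23 Mb lay 676 of 680 untreated regions (99.4%, exact 95% binomial interval 98.5% to 99.8%), 1050 of 1093 cisplatin regions (96.1%, 94.7% to 97.1%) and 901 of 928 Pt-ttpy regions (97.1%, 95.8% to 98.1%). These intervals and those below cover counting error within a list only. The remaining 11 Mb had 4 regions without treatment, 43 after cisplatin and 27 after Pt-ttpy. The name 15q11 to 15q13 duplications is therefore wider than what the lists show, and the members are called proximal 15q regions here.

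**Figure D1:**
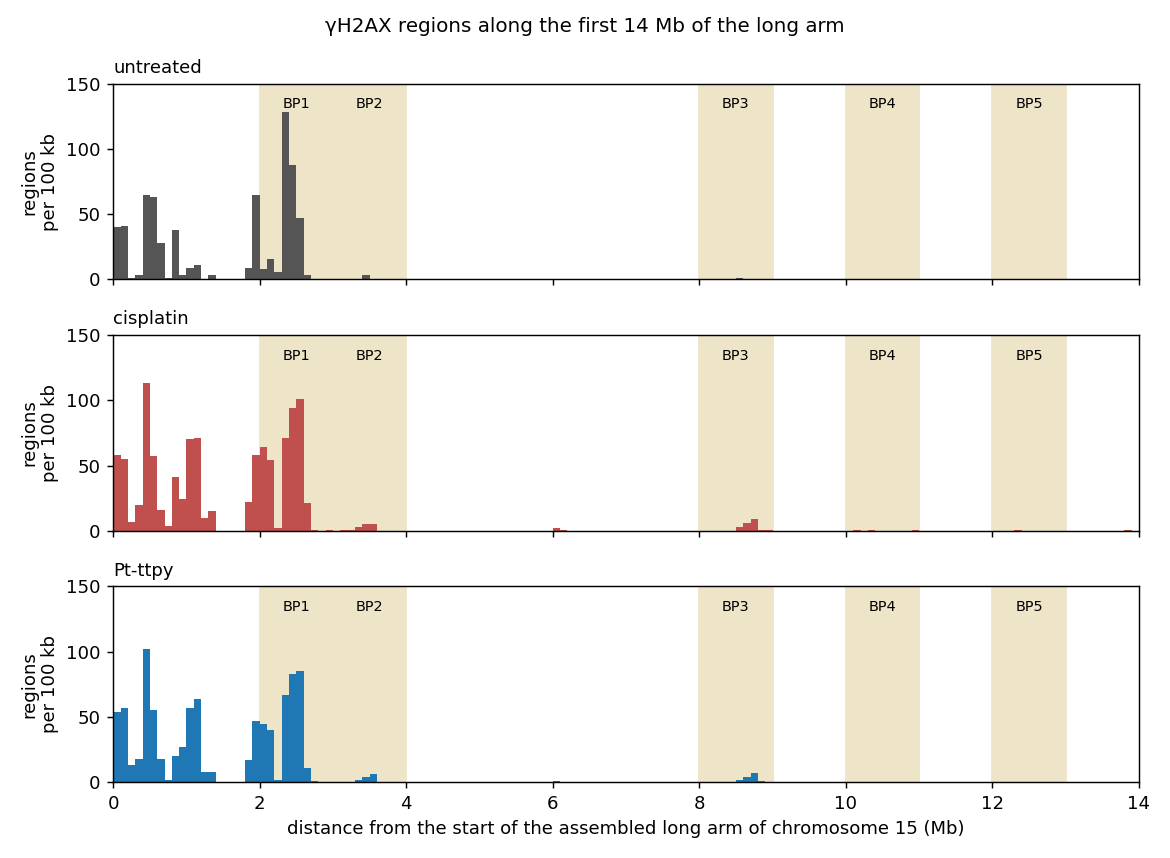
Number of γH2AX regions in each window of 100 kb (vertical axis) against the distance in Mb from the start of the assembled long arm of chromosome 15 (horizontal axis), 1 panel per list, with the windows of BP1 to BP5 shaded. Nearly all bars lie in the first 3 Mb in each list, small groups stand at BP2 and BP3, and BP4 and BP5 hold 3 and 1 regions, all from the cisplatin list.

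By segment, the untreated list had 380 regions on the centromere side, 296 at BP1, 3 at BP2 and 1 at BP3, and 0 in each of the other 6 segments. The cisplatin list had 641 on the centromere side, 409 at BP1, 15 at BP2, 3 in the interval from BP2 to BP3, 20 at BP3, 3 at BP4, 1 at BP5 and 1 beyond BP5. The Pt-ttpy list had 567 on the centromere side, 334 at BP1, 12 at BP2, 1 in the interval from BP2 to BP3 and 14 at BP3. No list had a region in the intervals from BP3 to BP4 and from BP4 to BP5. The 5 breakpoint windows together held 44.1% of untreated (40.3% to 47.9%), 41.0% of cisplatin (38.1% to 44.0%) and 38.8% of Pt-ttpy members (35.6% to 42.0%). With the regions of the BP1 window left out of both the count and the total, these shares were 1.04%, 5.70% and 4.38%. The share in breakpoint windows thus rested on the BP1 window. That window was set in whole Mb, and whether its regions lie in the BP1 block or on its centromere side was not measured. Of the 140 windows of 100 kb, 42 held a cisplatin region, 32 a Pt-ttpy region and 24 an untreated region, and each window with a region in any list had one in the cisplatin list.

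**Figure D2:**
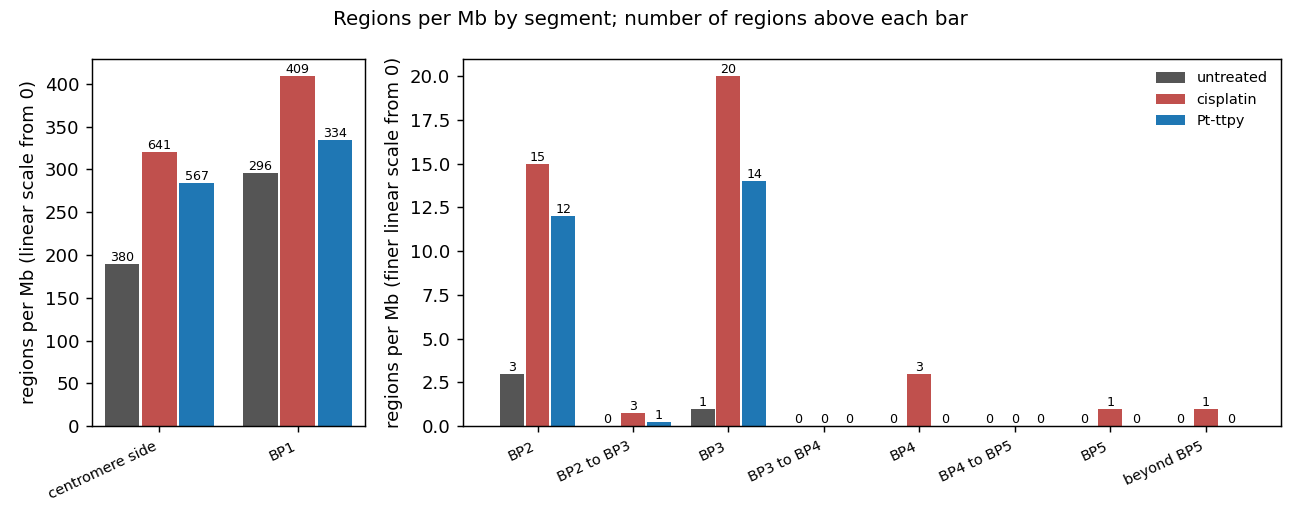
Regions per Mb (vertical axes, linear from 0, with a finer scale in the right panel) in each segment of proximal 15q, with untreated in grey, cisplatin in red and Pt-ttpy in blue and the number of regions above each bar. The right panel shows 15 cisplatin and 12 Pt-ttpy regions at BP2 and 20 and 14 at BP3, against 3 and 1 in the untreated list, and bars at or near 0 elsewhere.

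Within the first 3 Mb the regions fell into 10 clusters, set apart by at least 30 kb without a region in any list and holding 20 or more regions of the 3 lists together. An eleventh cluster lay at BP3. This grouping was chosen after the positions were seen. The clusters held 99.3% of untreated, 96.3% of cisplatin and 97.4% of Pt-ttpy members.

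The regions with the highest folds stood at the very start of the long arm. The fold is the authors' value over a background that is constant within a list and differs between lists, so folds rank regions inside 1 list and are not compared across lists. The untreated region at 20005611 to 20006018 had a fold of 26.2 and a -log10 q of 97.2, the highest of its list in proximal 15q and in the top 3.67% of the whole list. It was overlapped by the cisplatin region at 20005048 to 20006053, with a fold of 21.8, the highest cisplatin member. The Pt-ttpy region there, at 20005025 to 20006103, had a fold of 16.6. The highest Pt-ttpy member was at 20025834 to 20026270, with a fold of 17.1, and was matched at 20025831 to 20026224 (fold 22.6, untreated) and 20025758 to 20026253 (fold 20.3, cisplatin). In each list these places stood far above the list's median fold in proximal 15q, which was 4.81 for untreated, 3.98 for cisplatin and 3.78 for Pt-ttpy. All 5 untreated regions with a -log10 q of at least 40 lay below 20.1 Mb, as did 7 of 8 such cisplatin and 8 of 10 such Pt-ttpy regions. The first cluster, from 20000077 to 20148374, had 81 regions without treatment, 113 after cisplatin and 111 after Pt-ttpy, with median folds of 6.62, 5.02 and 5.07.

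**Figure D3:**
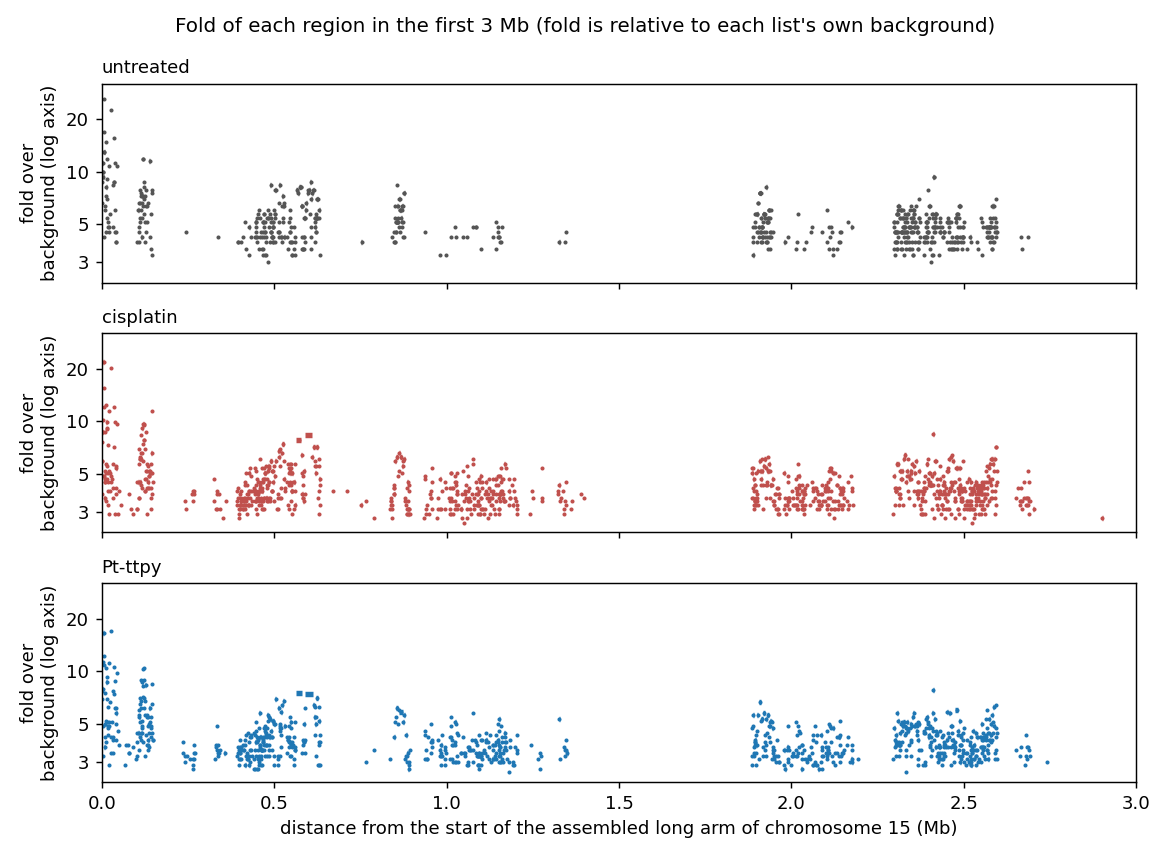
Fold of each region over its own list's background (vertical log axis) against distance in Mb from the start of the assembled long arm of chromosome 15, for the first 3 Mb, 1 panel per list; horizontal strokes span the region. Folds above 10 stand in the first 150 kb, the widest strokes lie near 0.6 Mb, and the stretch near 1 Mb is filled in both treated lists and thin in the untreated list.

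The widest regions formed a near-continuous block a little farther out. Between 20564101 and 20630785, 61.1 kb of a span of 66.7 kb (91.6%) was called in the cisplatin list, 59.2 kb of 66.0 kb (89.6%) in the Pt-ttpy list and 48.2 kb of 65.5 kb (73.5%) in the untreated list. The widest cisplatin region ran from 20589587 to 20609528 (19942 bp, fold 8.31) and the widest Pt-ttpy region from 20590987 to 20611541 (20555 bp, fold 7.40). The untreated list covered the cisplatin region with 13 pieces, the widest from 20599864 to 20604103. The widest untreated region of proximal 15q, from 20572010 to 20577181 (5172 bp, fold 8.12), lay inside the cisplatin region from 20564101 to 20578435 and the Pt-ttpy region from 20564318 to 20581528. The block is thus called in the untreated list as well, in more and shorter pieces. A constant background does not adjust for local copy number or repeated sequence, and their bearing on the block was not tested. It belongs to the cluster from 20390968 to 20634111. That cluster had 158 regions without treatment, 195 after cisplatin and 182 after Pt-ttpy, covering 73.0, 146 and 135 kb. The window from 20.4 to 20.5 Mb, just before the block, was the densest after either drug: 113 regions for cisplatin and 102 for Pt-ttpy, against 65 untreated.

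The cluster from 20935840 to 21205135 was the place where the treated lists stood farthest above the untreated list in number. It had 23 regions without treatment, 169 after cisplatin and 151 after Pt-ttpy, covering 1.20%, 16.0% and 11.5% of its 269 kb. The treated regions there were low, with median folds of 3.64 (cisplatin) and 3.52 (Pt-ttpy), and a -log10 q of 5 or more was reached by 47.9% and 37.7%. The untreated list as deposited lacks peak numbers here: its regions carry 22 numbers of a run in which 44 further numbers are missing. Another 7 are missing between 20878360 and 20938171 and 14 between 21161500 and 21327599, stretches that reach into the cluster from either side. A peak number can be several pieces, so these numbers and the region counts are not in the same unit. The bearing of the missing numbers, and of the depth at which peaks were called, on the difference was not tested. This cluster was singled out after its values were seen.

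Among the segments, the BP1 window held the most regions per Mb in all 3 lists: 296 untreated, 409 cisplatin and 334 Pt-ttpy. The centromere side had 190, 320 and 284 per Mb, as an average over its 2 Mb. The ranking therefore does not set BP1 against single Mb, which can be denser than that average. Most regions of the BP1 window lay in a single cluster of 301 kb, from 22295569 to 22596123. That cluster had 269 regions without treatment, 268 after cisplatin and 237 after Pt-ttpy. The counts there were nearly level, but the covered length was not: 57.7 kb without treatment against 180 kb (cisplatin) and 172 kb (Pt-ttpy). Median widths were 154 bp without treatment, 318 bp after cisplatin and 384 bp after Pt-ttpy. In the window from 22.3 to 22.4 Mb, the densest of the untreated list, 128 untreated regions stood against 71 cisplatin and 67 Pt-ttpy regions, and these covered 28.4 kb, 71.2 kb and 68.4 kb. A lower number of treated regions there went with longer ones. The highest regions of the whole BP1 segment lay at one place in all lists: 22412292 to 22412586 and, with the same fold, 22412723 to 22412876 in the untreated (fold 9.32), 22411821 to 22412881 in the cisplatin (fold 8.48) and 22411684 to 22412943 in the Pt-ttpy list (fold 7.79). A neighbouring cluster, from 21885131 to 22193103 and across the border of the window, held 98 untreated, 198 cisplatin and 149 Pt-ttpy regions.

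At BP2 the regions were few and short. The untreated list had 3, at 23420529 to 23420660, 23432731 to 23432863 and 23450112 to 23450201, with folds of 4.51, 5.71 and 4.81. The 15 cisplatin regions ran from 23191203 to 23597299, with a median width of 132 bp, and 1 of them lay on an untreated region. The highest was at 23450895 to 23451053 (fold 4.85), overlapped by the Pt-ttpy region at 23450907 to 23451018 (fold 3.78). The 12 Pt-ttpy regions ran from 23342236 to 23513306, with a median width of 121 bp, and 2 lay on an untreated region. The highest was at 23450085 to 23450203 (fold 4.94), on the third untreated region and on no cisplatin region. Of the 15 cisplatin and 12 Pt-ttpy regions, 5 of each lay on a region of the other treated list.

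BP3 was nearly empty without treatment. The untreated list had 1 region, at 28566331 to 28566407 (77 bp, fold 4.81), which lay inside the cisplatin region at 28566079 to 28566469 (fold 3.29). The cisplatin list had 20 regions from 28564285 to 28941387 and the Pt-ttpy list 14 from 28566202 to 28821235. They were close to the calling limit: 4 of 20 for cisplatin and 2 of 14 for Pt-ttpy had a -log10 q of at least 5. The highest cisplatin value, a fold of 4.33, was shared by the regions at 28732673 to 28732773 and 28738524 to 28738624, both on no region of another list. The highest Pt-ttpy value, a fold of 3.91, was shared by the regions at 28696355 to 28696498, on no other list, and 28703718 to 28703860, on a cisplatin region. Across the drug lists, 6 of 20 and 6 of 14 lay on a region of the other. One such place had cisplatin regions at 28703770 to 28704267 and 28705899 to 28706200 and Pt-ttpy regions at 28703718 to 28703860 and 28706001 to 28706107. Between the last untreated region of BP2 and this one the list lacks 10 peak numbers, and 10 more are missing before the next, at 34492581 on the far side of the limit. Where in those stretches they stood is not known, so untreated peaks may be missing from the outer part of proximal 15q.

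BP4 and BP5, whose GOLGA8 copies are printed above, were empty in the untreated and Pt-ttpy lists. The cisplatin list had 3 regions at BP4, at 30106468 to 30106576 (fold 4.15), 30313242 to 30313342 (fold 4.33) and 30931323 to 30931469 (fold 2.77). It had 1 at BP5, at 32340809 to 32340909 (fold 2.94), and 1 beyond, at 33817082 to 33817209 (fold 2.60). The last has the lowest fold among cisplatin members, a value it shares with other members. None of the 5 overlapped a region of another list.

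The 4 Mb set for the interval from BP2 to BP3 had no untreated region, 3 after cisplatin and 1 after Pt-ttpy. Of these, 3 stood at 1 place: cisplatin regions at 26003418 to 26003558 and 26003750 to 26003911, both with a fold of 5.19, and a Pt-ttpy region at 26003378 to 26003541 with a fold of 4.04, which overlapped the first. It was the highest treated place in the unique intervals, with a -log10 q of 10.7 after cisplatin and 5.65 after Pt-ttpy. The remaining cisplatin region, at 26116554 to 26116690, had a fold of 2.94. Of all treated members off the untreated list, the highest were on the centromere side: at 20518371 to 20518528 in the cisplatin list (fold 6.92), matched by a Pt-ttpy region at 20518384 to 20518505 (fold 4.94), and at 20040283 to 20040627 in the Pt-ttpy list (fold 6.11), matched by a cisplatin region at 20040250 to 20040598 (fold 3.81).

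In number, the cisplatin list had 1.61 and the Pt-ttpy list 1.36 times as many regions in proximal 15q as the untreated list, and in covered length 2.77 and 2.51 times (193 kb untreated, 535 kb cisplatin, 485 kb Pt-ttpy). Over the whole lists the ratios were 2.64 and 1.83 in number and 2.62 and 2.13 in length. The cisplatin list had 1.18 times as many members as the Pt-ttpy list, against 1.44 over the whole lists. The number depends on what is counted. The untreated members carry 570 peak numbers of a run of 865, of which 295 (34.1%) are missing from the deposited list, where 49.0% are missing over the whole list. Against 865 the ratios were 1.26 and 1.07. With the pieces of 1 number joined they were 1.92 and 1.63, among regions past a -log10 q of 5 they were 1.68 and 1.31, and after merging within 1 kb 1.48 and 1.36. With 9709 top regions by -log10 q from each list the order turned, with 680 untreated, 455 cisplatin and 427 Pt-ttpy members. The peaks were also not called on equal terms: the background pileup that the folds are relative to was 2.33 reads in the untreated and 4.78 in the cisplatin list, and 5.18 in the Pt-ttpy list with pileups scaled by 0.798. An effect of treatment on the number of regions and an effect of the depth at which peaks were called cannot be told apart.

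Treated regions were wider. Untreated members had a median width of 161 bp (exact 95% interval 151 to 172), cisplatin members 231 bp (222 to 244) and Pt-ttpy members 226 bp (209 to 247), against 164, 169 and 185 bp over the whole lists. Regions of 1 kb or more numbered 30 untreated, 105 cisplatin and 101 Pt-ttpy, and held 29.2%, 48.2% and 53.1% of the covered length. The same was not computed over the whole lists or with the untreated pieces joined. The untreated list was cut up: 196 of its members were pieces that share a peak number with another piece, and 174 were narrower than 101 bp, the narrowest treated width. In 258 untreated members the summit lay outside the piece, so the fold of such a piece is that of a neighbouring position. With the pieces of 1 number joined, the untreated median was 189 bp. The sonicated fragments were 200 to 700 bp long: the untreated median lay below that range and both treated medians near its low end, so the widths describe called peaks and not the spread of γH2AX.

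**Figure D4:**
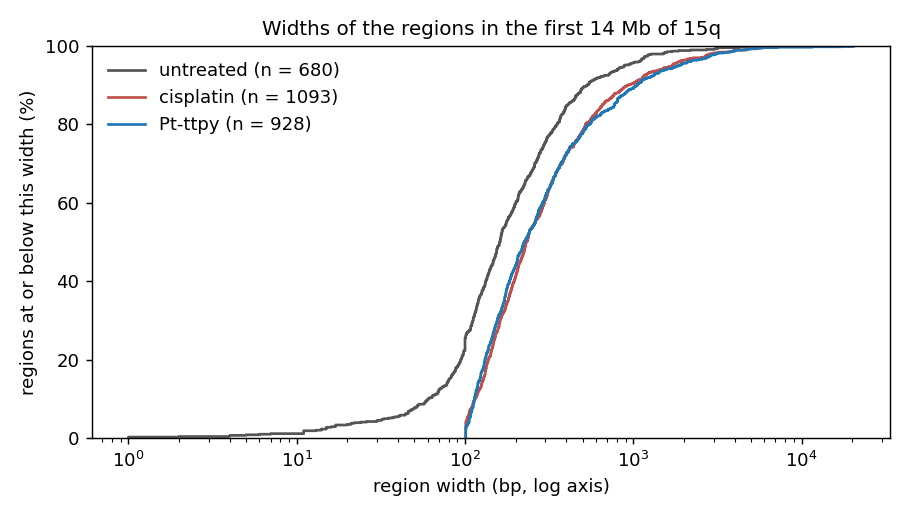
Share of proximal 15q regions at or below each width (vertical axis, %) against region width in bp (horizontal log axis), 1 line per list. The cisplatin and Pt-ttpy lines start at 101 bp and run together, with medians of 231 and 226 bp, and the untreated line lies to their left with a median of 161 bp and widths down to 1 bp.

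Signal strength within each list gave another order. A -log10 q of at least 5 was reached by 373 of 680 untreated members (54.9%; 73.9% over the whole untreated list), 627 of 1093 cisplatin members (57.4%; 46.9% over the whole list) and 487 of 928 Pt-ttpy members (52.5%; 57.6% over the whole list). The untreated and Pt-ttpy shares were below those of their lists and the cisplatin share above. The median fold was 4.81 against 5.71 over the untreated list, 3.98 against 3.64 over the cisplatin list and 3.78 against 3.91 over the Pt-ttpy list.

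Nearly every untreated member was also called after either drug. Of 680 untreated members, 655 shared at least 1 bp with a cisplatin region (96.3%, 94.6% to 97.6%; 96.1% over the whole list) and 652 with a Pt-ttpy region (95.9%, 94.1% to 97.2%; 95.1% over the whole list). These shares are near those of the whole lists. They describe only the untreated pieces kept in the deposited list, from which 295 of 865 peak numbers are missing here. What removed those numbers is not stated, and its bearing on the shares was not tested. In all, 631 untreated members lay on both treated lists and 4 on neither, counts whose share over the whole list was not computed. In the other direction 349 of 1093 cisplatin members (31.9%, 29.2% to 34.8%; 27.3% over the whole list) and 352 of 928 Pt-ttpy members (37.9%, 34.8% to 41.1%; 39.5% over the whole list) lay on an untreated region. Treated regions on an untreated one were the wider and stronger of their lists, with a median width of 528 bp and fold of 5.02 for cisplatin and 500 bp and 4.56 for Pt-ttpy. Those off it had medians of 188 bp and 3.64, and 172 bp and 3.52. By length, regions that touch an untreated region made up 66.8% of the sequence called after cisplatin and 73.8% of that called after Pt-ttpy.

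The drug lists shared more of their places here than over the whole lists. Of the cisplatin members 750 of 1093 lay on a Pt-ttpy region (68.6%, 65.8% to 71.4%; 47.8% over the whole list), and of the Pt-ttpy members 744 of 928 lay on a cisplatin region (80.2%, 77.5% to 82.7%; 69.9% over the whole list). A share by 1 bp can rise with the length that the other list covers, and this stretch was chosen for its number of regions. The share to be had from covered length alone was not computed, so the difference is a description and was not tested. The shared places lay in the first 3 Mb: 70.3% of cisplatin members from 20 to 23 Mb lay on a Pt-ttpy region, against 12 of 43 (27.9%) beyond, and 81.2% of Pt-ttpy members lay on a cisplatin region, against 12 of 27 (44.4%) beyond. Covered length differed between these parts too: 527 kb (cisplatin) and 481 kb (Pt-ttpy) from 20 to 23 Mb, against 7.17 and 4.12 kb beyond. Its bearing on the shares was not tested. By bases, 396 kb was called in both treated lists, 177 kb in all 3 and 626 kb in any. With at least 50% of both regions required to overlap, the shares were 38.4% for cisplatin on Pt-ttpy and 45.3% for Pt-ttpy on cisplatin, and 14.9% and 13.5% for untreated on cisplatin and on Pt-ttpy. The shares were thus much lower under this rule, which depends on how wide and how cut up the regions of each list are. Where 1 region faced 1 region, the starts differed by a median of 41.5 bp between the drugs and 71.5 bp between Pt-ttpy and untreated.

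**Figure D5:**
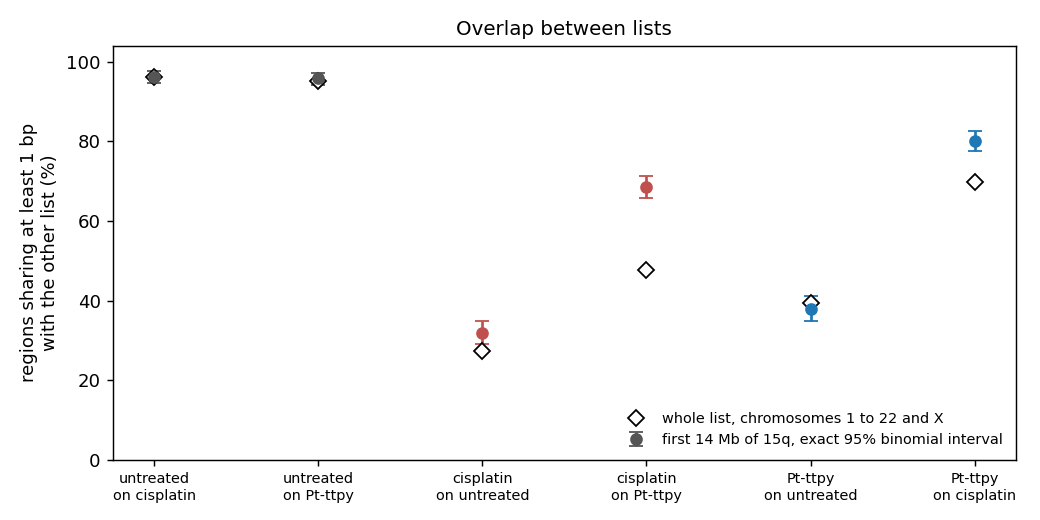
Share of regions that have at least 1 bp in common with a region of another list (vertical axis, %), for each ordered pair of lists on the horizontal axis: filled circles with exact 95% binomial intervals for proximal 15q, open diamonds for the whole list. The untreated shares of 96.3% and 95.9% lie by their diamonds, and the shares between the drug lists, 68.6% and 80.2%, lie above theirs at 47.8% and 69.9%.

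Off the untreated list were 744 cisplatin and 576 Pt-ttpy members. Of these cisplatin members 410 lay on a Pt-ttpy region and 334 on no other list, and of these Pt-ttpy members 401 lay on a cisplatin region and 175 on no other list. Of these, 609 of the 744 and 474 of the 576 lay between retained untreated neighbours with missing numbers between them. If each missing number stood for 1 treated region, they could account for 266 of the 744 and 256 of the 576. That count is no bound, since 1 number can be several pieces and a piece can touch several treated regions. These are regions called only in treated lists and carry the limit on calling depth given above. In the clusters at 20390968 to 20634111 and 22295569 to 22596123, which hold the most regions, the untreated list lacks 53 and 66 numbers.

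Past the limit of 34 Mb chromosome 15 held few regions: 24 untreated, 117 cisplatin and 66 Pt-ttpy. Proximal 15q thus had 96.6%, 90.3% and 93.4% of the chromosome's regions. The short arm has no assembled sequence, and no list had a region before 20 Mb. The last members inside the limit were at 28566331 (untreated), 33817082 (cisplatin) and 28821061 (Pt-ttpy). The first region outside it stood at one place in all lists, from 34492581 to 34492686 with a fold of 6.01 in the untreated, from 34492568 to 34492694 with 6.92 in the cisplatin and from 34492565 to 34492682 with 5.20 in the Pt-ttpy list.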

How the data were processed

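Peak lists of γH2AX chromatin immunoprecipitation from A2780 cells were used, 1 per antibody group of 2 samples. Alignment and calling tools are, per the submitters' processing notes, BWA 0.7.5 and MACS2 2.1.0, on build hg19. How replicates were pooled, the control and the settings: not given in the sources used here. Each treated list is called by its drug, though its name holds the untreated group's tag as well. Fold enrichment ratios, the -log10 p and -log10 q values and the score (10 times the -log10 q without its decimals) are as the authors deposited them. Read totals are not used here, so depth is unknown beyond the background pileup, which was recovered from the spacing of the folds and the Poisson p-values. Intervals are exact binomial or order-statistic intervals at 95%.

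Positions are 1-based. Overlap means at least 1 bp. Alternatives were a -log10 q of at least 5, merging within 1 kb, equal numbers of top regions, joined pieces, 50% reciprocal overlap, leaving out 22 to 23 Mb, and, added after seeing the data, counting missing peak numbers. Named regions are, per list, the highest -log10 q of each segment, the widest, the 5 densest windows of 100 kb, and the highest off the untreated list; other named places were chosen after their values were seen. The members and segments were chosen with earlier results of these data known. RefSeq promoter and microRNA tables (GRCh38.p14) were matched by symbol and copies aligned with Biopython 1.88. A planned search of the regions' own sequence was not run, for want of a genome of build hg19 here. Computation used pandas 2.3.3 and numpy 2.4.6 under Python 3.11.15, intervals scipy 1.17.1 and plots matplotlib 3.10.9. The overlap code was tested on simulated data.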

Additional observations from a re-analysis of the deposited data

How the results depend on the processing

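With a -log10 q of at least 5 the lists held 373 untreated, 627 cisplatin and 487 Pt-ttpy members, the untreated share in breakpoint windows was 38.9%, and median widths were 225, 351 and 379 bp. With regions within 1 kb merged there were 192, 284 and 261 members with median widths of 327, 466 and 562 bp, and overlap was 28.2% for cisplatin on untreated, 62.3% for cisplatin on Pt-ttpy and 75.1% for Pt-ttpy on cisplatin. With equal numbers of top regions there were 455 cisplatin and 427 Pt-ttpy members against 680 untreated, so the treated lists were shorter, and the cisplatin share in breakpoint windows was 37.6%. Overlap was then 85.7% for untreated on cisplatin, 86.0% for untreated on Pt-ttpy, 61.3% for cisplatin on untreated, 74.3% for cisplatin on Pt-ttpy, 66.0% for Pt-ttpy on untreated and 76.3% for Pt-ttpy on cisplatin, and median widths were 443 bp for cisplatin and 402 bp for Pt-ttpy. With 50% of both regions shared, overlap was 14.9% and 13.5% for untreated on cisplatin and on Pt-ttpy, 9.24% and 38.4% for cisplatin on untreated and on Pt-ttpy, and 9.91% and 45.3% for Pt-ttpy on untreated and on cisplatin. Without 22 to 23 Mb the shares in breakpoint windows were 1.04%, 5.70% and 4.38%, and median widths were 172 bp for untreated and 204 bp for Pt-ttpy. With the pieces of 1 number joined the untreated median was 189 bp. With missing numbers counted the untreated count was 865. The cause of these shifts was not tested, beyond the smaller or differently cut lists that the settings themselves make. Replicates could not be left out, since each list stands for both samples of a group. No paired analysis was possible because each group has 1 list and no values per replicate.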
